A study of Mus musculus with 16 samples.

Results

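The proximal end of mouse chromosome 8 was examined gene by gene in melanoma tumours that were deficient in Pros1 or wild-type. A member was any protein-coding gene that ended at or before position 84000409 of chromosome 8 (GRCm38) and reached 1 FPKM in at least 4 of the 16 libraries, with Hgsnat left out. FPKM is fragments per kilobase of gene length, scaled for sequencing depth. Of 575 protein-coding genes of the stretch besides Hgsnat, 316 passed this filter and 259 did not, from a table of 54532 genes of which 12319 were tested. The members ran from Insr, which starts at position 3122061, to Samd1, which ends at 84000409. The stretch was chosen on the genotype differences themselves, since its genes were higher in the Pros1-deficient tumours. Every difference of members between the genotypes below is therefore a description, and nothing is read from its test. The tests that are read are those of the responses to cisplatin. The interaction with genotype compares the genotype differences of both treatments, so for members it too is a description.

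The tumours grew under the skin of C57BL/6J mice of both sexes, aged 8 weeks, from B16F10 cells, a mouse melanoma line. The cells were either wild-type (WT) or the line called BdP, which the sample titles call Pros1-deficient and a second label calls a Pros1 knockdown. The labels do not say how Pros1 was lowered, nor whether BdP is a single clone. Treatment began 8 days after implantation and consisted of 2 rounds of 3 daily injections of PBS or of cisplatin at 5 mg/kg, a platinum drug that crosslinks DNA. Each of the 4 groups held 4 libraries, made from whole disaggregated tumours at end stage, so host cells were sequenced with the tumour cells. Nothing in the labels ties replicate numbers to litters, days or batches, and spreads below are spreads between these libraries.

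A chromosome carries genes of unrelated function side by side, so neighbours share position and copy number but usually no pathway. When a stretch of a chromosome is present in more or fewer copies, most genes within it that the cell uses change their RNA by a modest factor in the same direction. Neighbouring genes can also share chromatin or, where they are transcribed away from each other from a common start region, a promoter. Genes used mainly by host cells, such as those of lymphocytes and macrophages, follow the number of such cells in a tumour whatever the tumour cells' own chromosomes carry. DNA copies were not measured here.

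Sequences from the stretch are shown for 2 reasons: pairs of neighbouring members that are transcribed from a shared start region, and the promoters of 2 of the members with the largest differences. All are from RefSeq, build GRCm38.p6, and the promoter table matched 194 of the 316 members by symbol. In the 3 junctions, given on the plus strand, the gene on the left runs to the left and the gene on the right runs to the right. In the Col4a1 and Col4a2 junction (chr8:11312801-11312830) the capitals mark the 22 bases by which the annotated starts overlap. In the Lig4 and Abhd13 junction (chr8:9977682-9977711) they mark the 22 bases from one start to the other. The Mau2 and Sugp1 junction (chr8:70042735-70042812) is the 78 bases between the starts, with a GC box in capitals.
Col4a1/Col4a2: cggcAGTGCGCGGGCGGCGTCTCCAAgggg
Lig4/Abhd13: ccccTACGGGCTACCGTAGCATGAAGgcgg
Mau2/Sugp1: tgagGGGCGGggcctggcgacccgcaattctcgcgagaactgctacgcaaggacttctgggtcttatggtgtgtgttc

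The promoters are the 250 bases before each RefSeq start, read in the direction of the gene. The last 29 bases of the Klf2 window lie within an annotated exon of Klf2 in GENCODE M21. Bst2 (chr8:71537473-71537722, minus strand) encodes tetherin, an interferon-induced membrane protein that holds budding viruses on the cell. Klf2 (chr8:72318812-72319061, plus strand) encodes a transcription factor of resting lymphocytes and endothelium. Capitals mark matches, on either strand, to the GC box GGGCGG and to the interferon-stimulated response element (GAAA, any 2 bases, GAAA). Both matches to the latter in the Bst2 window overlap each other.
Bst2: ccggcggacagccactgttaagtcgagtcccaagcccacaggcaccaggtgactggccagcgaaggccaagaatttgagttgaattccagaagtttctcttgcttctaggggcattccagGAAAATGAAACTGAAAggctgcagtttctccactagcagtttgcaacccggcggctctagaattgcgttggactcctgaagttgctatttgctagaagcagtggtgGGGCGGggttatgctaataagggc
Klf2: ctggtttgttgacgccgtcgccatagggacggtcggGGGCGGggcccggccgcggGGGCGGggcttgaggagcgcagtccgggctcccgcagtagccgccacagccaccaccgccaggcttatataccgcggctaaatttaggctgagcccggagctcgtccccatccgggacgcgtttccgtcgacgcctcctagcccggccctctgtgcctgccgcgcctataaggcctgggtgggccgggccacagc

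Across the 244 promoter windows of members, 60.2% held the GC box, against 60.9% of the 271 windows of chromosome 8 genes beyond the stretch and 32.7% of all 32851 windows. The interferon element was found in 4.10% of member windows, 2.21% beyond the stretch and 2.98% of all. The CCAAT box (CCAAT) was in 41.4% of member windows, 32.5% beyond and 33.8% of all, the TATA box (TATAAA) in 6.15%, 7.01% and 12.4%, and the AP-1 site (TGACTCA) in 3.28%, 3.69% and 4.46%. The median window of a member held 16 CG dinucleotides, against 18 beyond the stretch and 6 in all windows. These are matches of letters in fixed windows. Members were close to the rest of chromosome 8 in the GC box, TATA box, AP-1 site and CG count. The CCAAT box had a larger share in members, with no test. The share of the interferon element rests on 10 member windows, so nothing is read from it. The 244 windows belong to 194 members, so a gene can count more than once.

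Reads assigned to genes ran from 10051843 to 27055771 per library, with a median of 21119708. The share of mitochondrial RNA was 76.9% in WT PBS 1, 21.7% in WT cisplatin 4 and 12.2% in WT cisplatin 3, and lay between 2.03% and 5.06% elsewhere. The median member was thus covered by 57 reads in WT PBS 1 and by up to 1134.5 in the deepest library. Pros1 checked the genotype labels, with 4.79 to 11.5 FPKM in the 8 WT libraries and 1.24 to 2.52 in the 8 BdP libraries. All 7 melanoma markers passed the filter, and their summed FPKM ran from 4648 to 8596 in WT PBS and from 5403 to 6747 across the other 3 groups. Summed leukocyte markers (Ptprc, Cd52, Laptm5 and Coro1a) ran from 5.42 to 228 FPKM in WT PBS, 48.2 to 529 in BdP PBS, 12.4 to 131 in WT cisplatin and 77.7 to 267 in BdP cisplatin.

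Members lay modestly and broadly higher in BdP tumours. Under PBS the median difference, BdP minus WT on the log2(FPKM + 1) scale, was 0.22 over the 316 members, with the middle of the distribution from 0.06 to 0.42 (25th to 75th percentile), and 250 members were above 0. Under cisplatin the median was 0.23 (0.11 to 0.36), and 270 were above 0. The median ratio of group mean FPKM was 1.18 under PBS and 1.21 under cisplatin. Over all 12319 genes the medians were 0.01 in each treatment, and over the 291 protein-coding chromosome 8 genes beyond the stretch they were -0.02 in each, with 133 and 131 above 0. The scale understates the change of genes with low FPKM.

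The direction was shared between the treatments. They used different libraries of both genotypes, but both entered the choice of the stretch, so their agreement over members is a description. In 228 members (72.2%) BdP was above WT in both treatments, in 24 it was below in both, and 64 were mixed. The corresponding share above in both was 33.9% of all genes tested and 27.1% of chromosome 8 genes beyond the stretch. Across the members, the differences in the 2 treatments correlated with r = 0.50, a description over 316 genes measured in the same libraries, against 0.59 over all genes. The plot of every member in both treatments shows most points in the upper right and a few isolated genes far below.

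**Figure D1:**
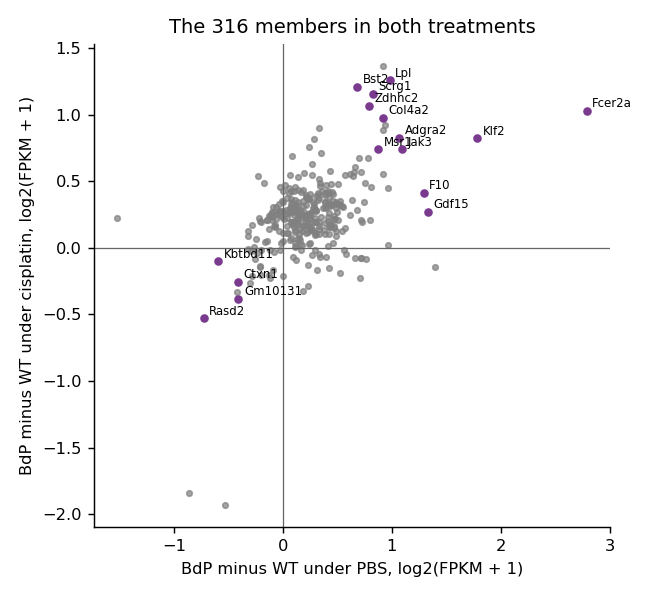
Each point is 1 of the 316 members, by its difference BdP minus WT in log2(FPKM + 1) under PBS (x) and under cisplatin (y), from group means of 4 libraries each. Named points are the 12 with the largest and 4 of the 6 with the lowest mean of both differences among members with at least 5 FPKM in their highest group; 228 members lie above 0 on both axes.

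Each BdP library showed the shift, in the same libraries on which the stretch was chosen. The median over members of a library's log2(FPKM + 1) minus the WT mean of the same treatment was 0.19, 0.15, 0.27 and 0.19 in BdP PBS 1 to 4, and 0.24, 0.24, 0.24 and 0.23 in BdP cisplatin 1 to 4. The WT libraries, against that same mean, lay between -0.01 and 0.01 under PBS and between -0.01 and 0.03 under cisplatin. No BdP library overlapped a WT library in this median. The BdP spread was wider under PBS (SD 0.05, n = 4) than under cisplatin (SD 0.0074, n = 4). For chromosome 8 beyond the stretch, the BdP libraries ran from -0.06 to 0.01 and overlapped the WT libraries. The leukocyte marker sums of these BdP libraries were 242, 529, 48.2 and 94.8 FPKM under PBS and 77.7, 267, 257 and 141 under cisplatin, in the order of the medians above. Under PBS the libraries with the lower sums had the higher medians, in all 4, and under cisplatin no such order was seen. The part of leukocyte content in these medians was not tested.

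**Figure D2:**
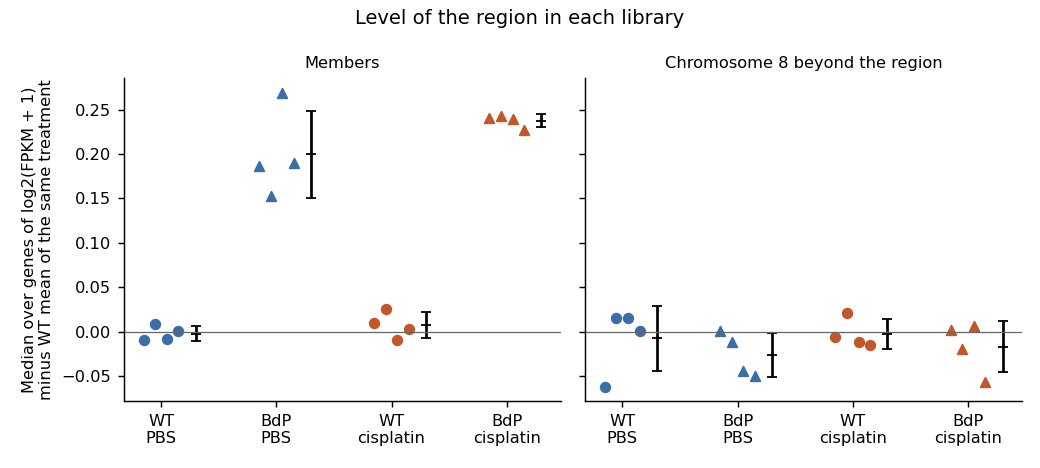
Points are libraries (circles WT, triangles BdP, blue PBS, orange cisplatin), and the y axis is the median over genes of log2(FPKM + 1) minus the mean of the WT libraries of the same treatment, for the 316 members (left) and for 291 chromosome 8 genes beyond them (right). Black bars are mean ± SD of 4 libraries; BdP libraries sit at 0.15 to 0.27 on the left and near 0 on the right.

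More members separated the groups on their own under cisplatin than under PBS, and so did a larger share of all genes tested. The WT PBS group holds WT PBS 1, with 76.9% mitochondrial reads, and the part of that library was not tested. Nothing about the treatments is therefore read from these counts. Under PBS the lowest BdP library was above the highest WT library for 39 members (12.3%), against 3.36% of all genes tested, and the reverse held for 1 member, against 4.32%. Under cisplatin these counts were 94 above (29.7%), against 6.41%, and 5 below, against 6.6%. In 20 members BdP lay above WT without overlap in both treatments (6.33%, against 0.942% of all genes). An adjusted p below 0.05 (limma, Benjamini-Hochberg over all genes) was reached by 6 members higher and 0 lower under PBS, where 0.414% of all genes were called higher and 0.576% lower (0.99% in all). Under cisplatin it was reached by 5 higher and 2 lower, where 0.349% and 0.722% were (1.07% in all). Nothing is read from these calls, because the genotype contrast chose the stretch, and they moved with single libraries: leaving out WT PBS 3 gave 21 calls under PBS, leaving out BdP PBS 1 or 4 gave 0, and leaving out WT PBS 1 gave 15 under cisplatin.

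The shift ran along the stretch and faded before the end that the rule sets. In bins of 10 Mb from the centromere to 80 Mb, the medians under PBS were 0.24, 0.27, 0.14, 0.25, 0.18, 0.16, 0.22 and 0.24, over 27, 35, 41, 25, 29, 11, 28 and 99 members. Under cisplatin the same bins gave 0.17, 0.22, 0.28, 0.24, 0.27, 0.23, 0.23 and 0.26. The bin from 50 to 60 Mb rests on 11 genes. The last 21 members, which end after 80 Mb, had medians of 0.26 under PBS and 0.11 under cisplatin. Beyond the stretch, the bins up to 130 Mb had medians of -0.07 to 0.03 under PBS and -0.08 to 0.02 under cisplatin.

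A finer look at the last 21 members, with a split at 83 Mb chosen after the values were seen, placed the fall of the profile inside the stretch. The 7 members that end between 80 and 83 Mb had medians of 0.39 and 0.14, and the 14 that end after 83 Mb had -0.13 and 0.01 with 6 and 7 above 0. In none of those 14 did BdP lie above WT without overlap in both treatments, against 6.33% of all members and 0.942% of all genes. With 14 genes, nothing is read from this count. The 302 members that end by 83 Mb had medians of 0.23 and 0.24. The nearest genes outside, the first 20 beyond the end, had medians of -0.04 and -0.06.

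**Figure D3:**
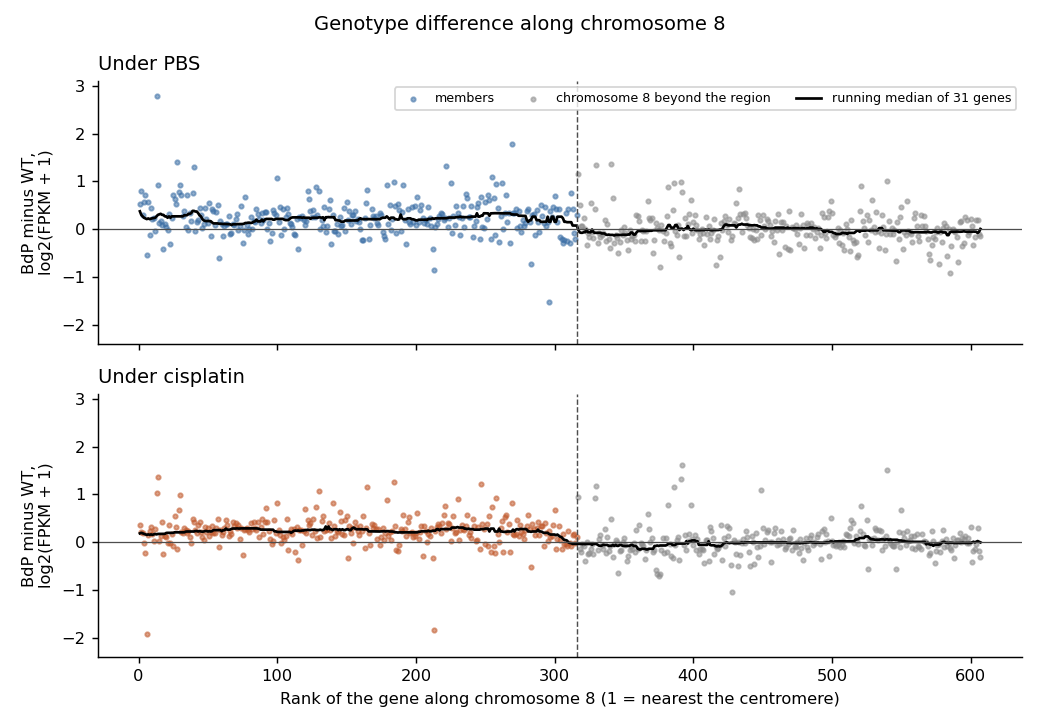
Each point is a protein-coding gene of chromosome 8 in order from the centromere (x, rank), with its difference BdP minus WT in log2(FPKM + 1) on the y axis, under PBS (top) and cisplatin (bottom). Coloured points are the 316 members, grey points the 291 genes beyond the dashed line, and the black line is the running median of 31 genes, which stays above 0 to near the end of the members and lies near 0 beyond.

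The 3 genes on each side of the end had mixed differences. Inside, Samd1, a reader of unmethylated CpG islands, had 8.99 to 15.01 FPKM in WT and 11.9 to 16.3 in BdP under PBS (difference 0.29 ± 0.17, moderated SE), and 0.11 ± 0.17 under cisplatin. Prkaca, the catalytic subunit of protein kinase A, had differences of -0.20 ± 0.09 and -0.02 ± 0.09, and Asf1b, a histone chaperone, -0.08 ± 0.17 and 0.16 ± 0.17. Outside, Il27ra, a cytokine receptor chain of lymphocytes, gave 1.15 ± 0.57 and 0.95 ± 0.57, Rfx1, a transcription factor, 0.50 ± 0.19 and -0.15 ± 0.19, and Dcaf15, a substrate adaptor of a ubiquitin ligase, 0.07 ± 0.18 and -0.21 ± 0.18. The groups of Samd1 and of Prkaca under cisplatin overlapped, as did those of Il27ra under PBS, whose FPKM was 0.0217 to 2.44 in WT and 0.538 to 7.86 in BdP.

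Member medians are given by level of expression, and those of the sets above the lowest one were all over 0. Ranked by mean FPKM in sets of 79, members had medians of 0.21, 0.28, 0.26 and 0.18 under PBS from the lowest set to the highest, and 0.16, 0.23, 0.26 and 0.26 under cisplatin. Genes of the lowest set, with mean FPKM of 0.489 to 3.30, can pass the filter through BdP libraries alone. Nothing is therefore read from the medians of that set. Chromosome 8 genes beyond the stretch in the same ranges had 0.11, 0.01, -0.06 and -0.13 under PBS and 0.02, -0.02, -0.02 and -0.04 under cisplatin. The 36 genes of other biotypes in the stretch that passed the filter lay lower as a set, with medians of 0.12 and -0.06 and 9 above 0 in both treatments. Of these, 18 were processed pseudogenes (medians -0.09 and -0.08), whose reads cannot be told apart with certainty from those of their parent genes elsewhere. The 4 lincRNAs had medians of 0.05 and -0.04, and 4 processed transcripts had 0.42 and 0.38.

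Set against other chromosomes, the stretch was among those that stood farthest from 0. Protein-coding genes of chromosome 18 had medians of 0.20 under PBS and 0.27 under cisplatin (275 genes), close to the 316 members. Chromosome 3 lay at -0.14 and -0.20 (522 genes) and chromosome 17 at -0.09 and -0.18 (549 genes). Chromosome 1 lay at 0.09 in each treatment. A shift of this size over many linked genes was therefore not particular to proximal chromosome 8.

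Transcription, chromatin and RNA genes formed the largest of the role lists, with 45 members tested. Their medians were 0.23 under PBS and 0.19 under cisplatin, with 39 and 42 above 0. Under PBS, BdP was above WT without overlap for 6 (13.3%, against 12.3% of members and 3.36% of all genes). Under cisplatin this held for 10 (22.2%, against 29.7% of members and 6.41% of all genes). Ash2l, a core subunit of the histone H3 lysine 4 methyltransferase complexes, gave 11.4, 11.5, 12 and 12.99 FPKM in the WT libraries and 15.3, 15.5, 17.4 and 14.5 in the BdP libraries under PBS. Under cisplatin it gave 13.3, 13.5, 12.4 and 11.8 in WT and 19.2, 17.8, 15.98 and 17.3 in BdP. All 8 BdP values of Ash2l were above all 8 WT values, with differences of 0.36 ± 0.08 and 0.43 ± 0.08.

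Other members of that list moved by like amounts or with less separation. Mau2, which with Nipbl loads cohesin onto chromosomes, had 5.72 to 6.80 FPKM in WT and 8.42 to 10.4 in BdP under PBS, and 6.76 to 7.67 against 7.74 to 9.29 under cisplatin. Ints10, a subunit of the Integrator complex that ends small nuclear RNAs, had 4.01 to 4.62 against 4.87 to 5.49 and 4.07 to 4.86 against 5.09 to 5.94. Neither gene's groups overlapped in either treatment. Among the most abundant of the list were Lsm4 of the spliceosome (0.24 ± 0.18 and 0.37 ± 0.18), Sap30 of the Sin3 deacetylase complex (-0.20 ± 0.21 and 0.19 ± 0.21) and Jund, an AP-1 factor. Jund had 21.8, 50.1, 50.2 and 55.1 FPKM in WT and 70.3, 98.8, 77.7 and 85.8 in BdP under PBS, but 49.7 to 69.8 against 44.1 to 77.4 under cisplatin. Its groups were apart under PBS and overlapped under cisplatin.

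Replication, repair and cell division genes of the list lay above 0 with 1 exception in each treatment. The list was made by hand and does not hold every member with such a role. Of 20 tested, 19 were above 0 in each treatment, with medians of 0.24 and 0.23, and 18 were above 0 in both. Of all members, 79.1% were above 0 under PBS and 85.4% under cisplatin. Under PBS, BdP was above WT without overlap for 1 (5%, against 12.3% of members and 3.36% of all genes). Under cisplatin this held for 9 (45%, against 29.7% of members and 6.41% of all genes). Mcm5, a subunit of the replicative helicase, had 34.0 to 47.0 FPKM in WT and 41.1 to 49.8 in BdP under PBS, and 30.3 to 41.8 against 43.7 to 46.4 under cisplatin. The groups overlapped under PBS and were apart under cisplatin. Cdc16 of the anaphase-promoting complex gave differences of 0.21 ± 0.12 and 0.22 ± 0.12, Babam1 of the BRCA1-A complex 0.25 ± 0.10 and 0.21 ± 0.10, and Frg1, a nuclear RNA-associated protein, 0.06 ± 0.14 and 0.27 ± 0.14. Wrn, the helicase lost in Werner syndrome, gave 0.44 ± 0.15 and 0.48 ± 0.15, and Polb, the polymerase of base excision repair, 0.07 ± 0.15 and 0.06 ± 0.15.

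Kinases, phosphatases and other signalling genes numbered 27 tested, with medians of 0.26 and 0.23 and 23 and 22 above 0. Ikbkb, the kinase that starts NF-kB signalling by marking its inhibitor for breakdown, had 2.36, 2.38, 2.53 and 2.20 FPKM in WT and 3.56, 3.85, 3.29 and 4.2 in BdP under PBS. Its groups were apart there and overlapped under cisplatin, with 2.18 to 2.81 against 2.67 to 4.00. Insr, the insulin receptor and the member nearest the centromere, gave 0.52 ± 0.18 and 0.35 ± 0.18. The most abundant members of the list moved less: Eif4ebp1, the translation repressor downstream of mTOR, gave -0.12 ± 0.21 and -0.01 ± 0.21, Dusp4, a phosphatase of MAP kinases, 0.27 ± 0.14 and -0.05 ± 0.14, Gipc1, a trafficking adaptor, -0.26 ± 0.13 and -0.08 ± 0.13, and Ppp2cb, a catalytic subunit of protein phosphatase 2A, 0.13 ± 0.18 and 0.21 ± 0.18. Inpp4b, a phosphatase of the PI3K pathway, had 1.45 to 3.07 FPKM in WT and 4.02 to 5.45 in BdP under PBS, and 2.13 to 3.29 against 3.68 to 6.48 under cisplatin, with no overlap in either.

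Lysosome, secretion and membrane traffic genes had medians of 0.25 under PBS and 0.28 under cisplatin over 35 members, with 29 and 33 above 0. Under PBS, BdP was above WT without overlap for 7 (20%, against 12.3% of members and 3.36% of all genes). Under cisplatin this held for 16 (45.7%, against 29.7% of members and 6.41% of all genes). Stxbp2, which steers vesicle fusion at the plasma membrane, had 17.1, 20.8, 18.5 and 16.7 FPKM in WT and 27.3, 23.1, 24.99 and 25.6 in BdP under PBS. Under cisplatin it had 18.3, 16.5, 19.6 and 20.6 against 22.5, 22.8, 25.4 and 23.7. Its genotypes were apart in both treatments, by 0.45 ± 0.09 and 0.32 ± 0.09.

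Lamp1, the most abundant membrane protein of lysosomes, had 198 to 246 FPKM in WT and 232 to 267 in BdP under PBS, which overlapped. Under cisplatin it had 208, 213, 200 and 231 in WT and 273, 272, 268 and 271 in BdP, which were apart (0.35 ± 0.10). Erlin2, of the endoplasmic reticulum membrane, had 15.1 to 16.2 against 17.7 to 22.5 under PBS and 12.4 to 16.9 against 18.9 to 20.6 under cisplatin. Borcs8, of the complex that positions lysosomes, had 8.72 to 15.6 against 16.2 to 20.9, and 10.2 to 14.8 against 17.3 to 19.4. Use1, a SNARE protein of the endoplasmic reticulum, had 13.1 to 20.7 against 23.3 to 34.7, and 16.04 to 22.1 against 26.5 to 34.6. Erlin2, Borcs8 and Use1 had no overlap in either treatment. Cpe, a peptide-processing enzyme of secretory granules (0.30 ± 0.16 and 0.10 ± 0.16), Atp6v1b2 of the proton pump (0.49 ± 0.17 and 0.34 ± 0.17) and Cope of the COPI coat (0.18 ± 0.12 and 0.24 ± 0.12) completed the 4 most abundant with Lamp1.

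Mitochondrial and metabolic genes had medians of 0.24 and 0.32 over 30 members, with 25 and 28 above 0. Slc25a4, which exchanges ADP for ATP across the inner mitochondrial membrane, had 331, 331, 269 and 300 FPKM in WT and 332, 409, 431 and 314 in BdP under PBS. Under cisplatin it had 309, 341, 261 and 216 against 437, 442, 412 and 430. The groups overlapped under PBS and were apart by 0.63 ± 0.15 under cisplatin. Colgalt1, which adds galactose to collagen, had 17.04, 23.9, 28.5 and 21.03 against 35.9, 34.9, 33.1 and 34.2 under PBS, and 17.8 to 25.7 against 29.9 to 32.5 under cisplatin, apart in both. Hmox1, the haem-degrading enzyme (0.43 ± 0.29 and 0.57 ± 0.29), Ndufa13 of respiratory complex I (0.14 ± 0.19 and 0.53 ± 0.19) and Mrpl34 of the mitochondrial ribosome (0.07 ± 0.19 and 0.33 ± 0.19) varied more between libraries.

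Matrix, secreted and adhesion genes were the most divided. Of 17 tested, 12 and 11 were above 0, with medians of 0.24 and 0.27 and a 25th to 75th percentile range of 0.00 to 0.78 under PBS and -0.14 to 0.41 under cisplatin. Col4a1 and Col4a2 encode the chains of basement membrane collagen IV and are transcribed away from each other from the junction printed above. Col4a2 had 6.11, 7.19, 5.44 and 10.7 FPKM in WT and 12.2, 10.3, 18.4 and 18.6 in BdP under PBS, and 8.15, 12.1, 6.07 and 8.23 against 23.7, 19.6, 11.2 and 17.96 under cisplatin. A single WT library reached into the BdP range in each treatment, and the differences were 0.92 ± 0.26 and 0.98 ± 0.26. Col4a1 had 7.13 to 15.96 against 13.3 to 26.2 and 11.6 to 20.3 against 15.2 to 29.98 (0.78 ± 0.29 and 0.68 ± 0.29).

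Adgra2, an adhesion receptor required for brain vessel growth, had 4.34, 8.66, 7.28 and 7.09 FPKM in WT and 13.5, 12.2, 17.2 and 18.2 in BdP under PBS. Under cisplatin it had 6.16, 11.6, 6.72 and 6.05 against 17.0, 13.0, 13.2 and 12.5. The groups were apart in both, and endothelial markers (Pecam1, Cdh5, Kdr, Tie1 and Emcn) summed to 6.03 FPKM at most in any library, with 3 of them at 0 in at least 1 library. The mean endothelial sum was 1.83 FPKM in WT and 3.35 in BdP under PBS, and 1.23 and 2.42 under cisplatin, and the part of endothelium in the Adgra2 values was not tested. Adam9, a membrane protease (0.24 ± 0.13 and 0.40 ± 0.13), and Tpm4, an actin-binding tropomyosin (-0.00 ± 0.19 and -0.21 ± 0.19), were the most abundant of the list. Gas6, the other ligand of the receptors that bind Pros1, lies in the stretch and had differences of 0.11 ± 0.31 and 0.04 ± 0.31, with 1.60 to 7.91 FPKM in WT PBS and 3.18 to 5.39 in BdP PBS.

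Immune genes had the largest median differences of the lists, and some, not all, host cell markers lay higher with them. Of 15 tested, 13 were above 0 under PBS and 12 under cisplatin, with medians of 0.56 and 0.74. Under PBS, BdP was above WT without overlap for 1 (6.67%, against 12.3% of members and 3.36% of all genes). Under cisplatin this held for 5 (33.3%, against 29.7% of members and 6.41% of all genes). Leukocyte markers lay in the same direction, with 4 of 4 above 0 in each treatment and medians of 1.72 and 1.86, though 0 of them passed the test. Macrophage markers had 7 of 7 above 0 (0.57 and 0.77), and T cell markers 7 of 7 (1.28 and 1.495). Neutrophil markers had 1 of 4 and 0 of 4 above 0 (-0.13 and -0.97), the 3 tested fibroblast markers medians of -0.15 and -0.11, and erythroid markers 0 of 5 above 0 in each treatment (-0.41 and -1.20). In bulk tumours, fewer cells of a type and less RNA per cell cannot be told apart, and the part of host cells in these values was not tested. Without the list, the 301 other members had medians of 0.21 and 0.23.

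The member with the largest difference under PBS had the same rank order as summed B cell markers across the BdP PBS libraries. Fcer2a, the low-affinity IgE receptor CD23 of B cells, had 0.0592 to 0.367 FPKM in WT PBS, and 7.87, 34.6, 0.608 and 7.01 in BdP PBS. The summed B cell markers of those BdP libraries were 453, 1369, 22.1 and 160 FPKM, in the same order. Under cisplatin only the BdP libraries with the highest and the lowest B cell sums are given here. Fcer2a was at 22.5 in BdP cisplatin 2, where B cell markers summed to 955. It was at 0.0203 in BdP cisplatin 1, where they summed to 9.45. Its difference of 2.79 ± 0.96 under PBS, the largest of any member, had a wide error, and the part of B cells in it was not tested. Among WT libraries Fcer2a reached 1 FPKM only in WT cisplatin 3 (6.73), so it passed the filter mainly through BdP libraries.

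Klf2 had 5.54, 29.3, 48.1 and 37.6 FPKM in WT and 103, 133, 47.6 and 76.6 in BdP under PBS, and 19.4 to 58.1 against 33.8 to 126 under cisplatin. The groups overlapped in both. Bst2, whose promoter is printed above, had 146, 91.1, 174 and 32.2 in WT and 237, 186, 121 and 94.7 in BdP under PBS, and 40.8 to 82.0 against 71.4 to 218 under cisplatin, with overlap in both. Jak3, the kinase of cytokine receptors with the common gamma chain, had 2.01 to 7.66 against 4.93 to 11.8, and 3.82 to 5.38 against 7.55 to 9.31, apart only under cisplatin. Tlr3, the sensor of double-stranded RNA in endosomes, had 2.29 to 4.05 against 3.63 to 4.67, and 1.48 to 3.43 against 4.56 to 5.42, also apart only under cisplatin. Msr1, a scavenger receptor of macrophages, had 0.770 to 14.9 against 5.35 to 18.03 and 1.34 to 6.59 against 1.45 to 14.4. Adgre5, the leukocyte adhesion receptor CD97, had differences of 0.76 ± 0.20 under PBS and -0.08 ± 0.20 under cisplatin.

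Several of the largest differences outside that list had wide errors. Lpl, lipoprotein lipase, had 3.52, 19.3, 17.99 and 0.925 FPKM in WT and 26.9, 17.6, 10.5 and 7.43 in BdP under PBS (0.98 ± 0.76, and 1.26 ± 0.76 under cisplatin). F10, coagulation factor X, gave 1.29 ± 0.75 and 0.41 ± 0.75, and Gdf15, a secreted stress cytokine, 1.33 ± 0.54 and 0.27 ± 0.54. The WT PBS values of Gdf15 ran from 0.276 in WT PBS 1 to 14.1 in WT PBS 2, and reached into the BdP range of 7.72 to 18.3. Zdhhc2, a palmitoyl transferase, had 2.25 to 6.21 in WT and 5.79 to 9.22 in BdP under PBS, and 2.69, 4.16, 2.98 and 2.82 against 7.65, 7.58, 7.80 and 7.54 under cisplatin (1.07 ± 0.20). The 4 BdP cisplatin values of Zdhhc2 were close to each other and above every WT value.

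**Figure D4:**
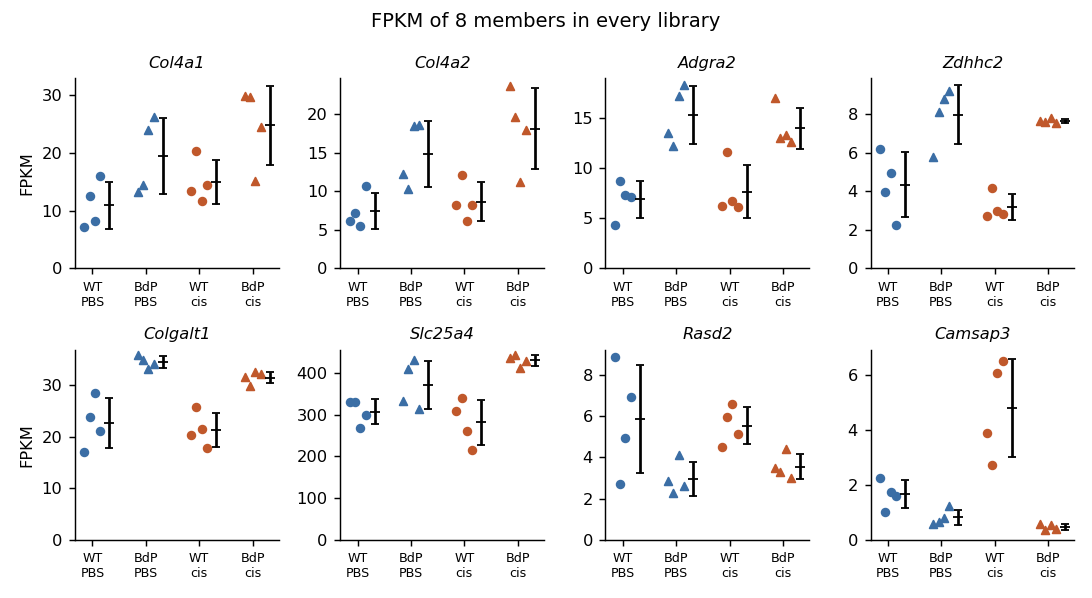
FPKM (y) of 8 members in each library, by group (cis, cisplatin); circles are WT, triangles BdP, and black bars mean ± SD of 4 libraries. Adgra2 and Colgalt1 are apart in both treatments, Zdhhc2 and Slc25a4 only under cisplatin, and Rasd2 lies lower in BdP, apart only under cisplatin.

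Heat shock and apoptosis genes were 7 tested, with medians of 0.33 and 0.30 and 6 above 0 in each treatment. Dnajb1, an HSP40 chaperone among the last 14 members, gave 0.33 ± 0.21 and -0.04 ± 0.21, and Ing1, a reader of methylated histone H3, 0.05 ± 0.14 and 0.26 ± 0.14. The 128 members in no role list had medians of 0.15 and 0.21, with 91 and 105 above 0.

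**Figure D5:**
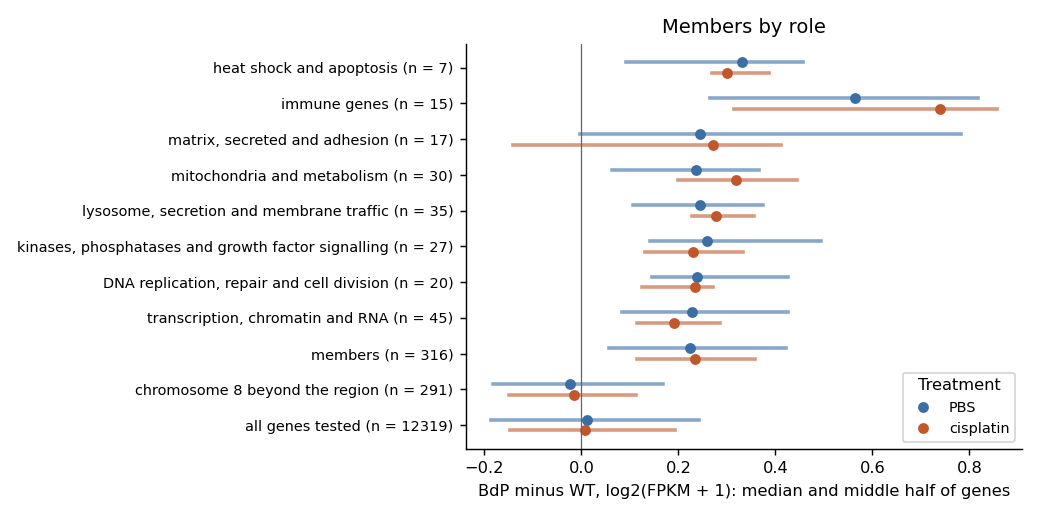
Dots are the median and lines the 25th to 75th percentile over genes of the difference BdP minus WT in log2(FPKM + 1), under PBS (blue) and cisplatin (orange), for all genes tested, chromosome 8 beyond the stretch, the members and 8 role lists, with the number of genes. The medians of the role lists lie between 0.19 and 0.74, and those of the 2 comparison sets at -0.02 to 0.01.

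Neighbours that start back to back were compared in 26 pairs of members with starts under 1000 bases apart. In 15 pairs all 4 differences (2 genes, 2 treatments) were above 0, where 72.2% of single members were above 0 in both treatments, so nothing is read from the count of pairs. Lig4, the ligase of non-homologous end joining, had 1.38 to 3.53 FPKM in WT and 3.43 to 7.42 in BdP under PBS, and 2.10 to 2.58 against 3.09 to 4.82 under cisplatin. Its partner Abhd13, a hydrolase of the same junction, had 4.93 to 8.82 against 10.3 to 12.8, and 7.26 to 8.56 against 9.70 to 10.6. Abhd13 was apart in both treatments and Lig4 only under cisplatin. Mau2 was apart in both, whereas Sugp1 across the 78 bases, a splicing factor, had differences of 0.15 ± 0.10 and 0.10 ± 0.10 with overlapping groups. Whether reads were counted by strand is not stated in the sources used here, so reads of overlapping ends, as at Col4a1 and Col4a2, may be shared.

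A minority of the 316 members lay lower in BdP, with 66 below 0 under PBS, 46 under cisplatin and 24 in both. BdP was below WT without overlap for 1 member in both treatments, against 1.42% of all genes. Camsap3, which binds the minus ends of microtubules, had 1.02 to 2.26 against 0.584 to 1.21, and 3.88, 2.71, 6.05 and 6.51 against 0.568, 0.362, 0.525 and 0.395. It overlapped under PBS and was apart under cisplatin. Rasd2, a small GTPase (-0.73 ± 0.24 and -0.53 ± 0.24), Kbtbd11 (-0.60 ± 0.23 and -0.10 ± 0.23), Gm10131 (-0.41 ± 0.16 and -0.38 ± 0.16) and Ctxn1 (-0.41 ± 0.26 and -0.25 ± 0.26) were other low members.

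Hgsnat, which acetylates heparan sulfate in lysosomes for its degradation, lies in the stretch, was left out and stood well above its neighbours. Under cisplatin it had 48.8, 81.1, 44.2 and 47.6 FPKM in WT and 154, 139, 185 and 143 in BdP, a difference of 1.5 ± 0.21, against a median of 0.28 for the members of its bin from 20 to 30 Mb. Its groups were apart in both treatments.

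No member passed the test for a response to cisplatin, a comparison that the rule did not use. The median difference, cisplatin minus PBS, was -0.01 in WT (156 of 316 above 0) and 0.01 in BdP (165 above 0). Over all genes these medians were -0.01 and -0.00. By limma with Benjamini-Hochberg adjustment, 0 members passed in WT, where 0.00812% of all genes did (1 gene), and 0 in BdP, where 0.0% did. At an unadjusted p below 0.05 there were 25 members in WT against 7.74% of all genes, and 16 in BdP against 4.4%, which are 7.91% and 5.06% of the members. The alternative fit to the recovered reads with voom also called 0 members in both. On simulated data, the fit recovered 75 of 100 genes changed 2-fold and 90 of 100 changed 4-fold in the WT contrast. The changed genes were drawn only from those with higher means, with normal noise of the same spread in every library. The recovery therefore does not cover low members or the extra noise of WT PBS 1.

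Groups did not overlap for 6 members higher and 4 lower under cisplatin in WT (1.75% and 1.49% of all genes), and for 11 higher and 10 lower in BdP (2.48% and 1.94%). Members with the smallest p in WT were Camsap3 (1.09 ± 0.21, limma adjusted p = 0.151), Spcs3, a subunit of signal peptidase (-0.43 ± 0.10, adjusted p = 0.402), Homer3, a synaptic scaffold (0.69 ± 0.22, adjusted p = 0.553), and Asah1, the acid ceramidase of lysosomes (-0.28 ± 0.09, adjusted p = 0.565). All 4 cisplatin libraries of WT tumours were above all 4 PBS libraries for Camsap3 and Homer3, and below them for Spcs3 and Asah1. In BdP the smallest p belonged to Gpm6a, a neuronal membrane glycoprotein (0.59 ± 0.18), Fam129c (-0.74 ± 0.23), Ufsp2, which removes the modifier UFM1 (0.33 ± 0.11), Scrg1 (1.34 ± 0.44) and Dnajb1 (-0.63 ± 0.21), each with a limma adjusted p of 1. Scrg1 had 5.50 to 6.63 FPKM in BdP PBS and 13.3 to 22.9 in BdP cisplatin, with no overlap.

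No member passed the test of whether its genotype difference changed with cisplatin. The test compares the genotype differences of both treatments, which chose the stretch, so nothing is read from its outcome for members. The interaction, the response in BdP minus the response in WT, had a median of 0.02 over members and 0.01 over all genes, and 0 members passed in limma, where 0.0% of all genes did. At an unadjusted p below 0.05 there were 20 members (6.33%) against 5.61% of all genes. The smallest p belonged to Camsap3 (-1.39 ± 0.30, limma adjusted p = 0.486), whose response was 1.09 in WT and -0.30 in BdP. Next were Zfp868 (-0.71 ± 0.23), Gpm6a (0.77 ± 0.25) and Irs2, an adaptor of the insulin receptor (-1.54 ± 0.50), each with a limma adjusted p of 0.835. Irs2 had 0.891 to 4.49 FPKM in WT PBS and 7.92 to 12.6 in BdP PBS, but 3.81 to 10.1 against 4.41 to 11.1 under cisplatin.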

How the data were processed

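RNA was measured in 16 tumours, 4 in each of 4 groups. The authors deposited 1 table of FPKM with gene positions, lengths and biotypes. The submitters' processing notes name CASAVA, HISAT2 2.0.5, featureCounts 1.5.0-p3 and the build GRCm38 (mm10), per the labels. The product of FPKM and gene length fell on whole reads in each library within 0.1 read, and the value of 1 read matched the median-of-ratios size factor (ratio 1.0), so the values were not scaled again. The symbol of 1 member that had become a date was restored with GENCODE M21, which held all 316 members at the same positions.

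Group means were fitted, for genes that reached 1 FPKM in 4 or more libraries, to log2(FPKM + 1) over all 16 libraries, with limma 3.58.1 under R 4.3.3 and its trend option. A call is a Benjamini-Hochberg adjusted p below 0.05 over 12319 genes. Errors are moderated standard errors, or SD with n = 4. The members, role lists and naming rule were chosen with earlier results of these data known. Named were the 12 members with the largest and 6 with the lowest mean genotype difference (at least 5 FPKM in the highest group), the 3 genes on each side of the end, the up to 4 most abundant members of each role list, the 5 members with the smallest p in each cisplatin contrast and the interaction, and Hgsnat, Gas6 and Pros1. Other genes were chosen after their values were seen. Some genes that this rule names are not reported here. The fit was tested on simulated data. In the unchanged BdP contrast it made 0 calls, and it made 3 false calls in the WT contrast. Counting error limits low genes, most in WT PBS 1. Replicate numbers were not treated as pairs, since the labels do not tie them between groups. Python 3.11.15, pandas 2.3.3 and matplotlib 3.10.9 were used for tables and plots. Alternatives are given in the closing section.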

Additional observations from a re-analysis of the deposited data

Results flagged for a closer look

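In 240 groups of 4 libraries (the reported genes in each group, and the member median), 22 held a library whose gap to its nearest neighbour took up most of the group's range. Chance alone marks about 1 group in 20, and no explanation was tested.

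In WT PBS 1, the library with the largest mitochondrial share, the FPKM of Cdc16 was 34.5 (22.6 to 24.3 in the other libraries of its group), of Eif4ebp1 142 (75.2 to 76.9) and of Ppp2cb 87.1 (43.8 to 45.2), and Jund was low at 21.8 (50.1 to 55.1), as was Rfx1, just outside the stretch, at 1.83 (4.13 to 4.40). In WT PBS 3, Il27ra, also outside, was at 2.44 (0.0217 to 0.314).

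In WT cisplatin 3, Fcer2a was at 6.73 (0.0932 to 0.523) and Il27ra at 2.61 (0.0928 to 0.257), where B cell markers summed to 257 FPKM against 8.82 to 45.8 in the rest of the group, and Ing1 was low at 10.9 (12.6 to 12.8). In WT cisplatin 2, Adgra2 was at 11.6 (6.05 to 6.72) and Hgsnat at 81.1 (44.2 to 48.8), and Frg1 was low at 13.9 (19.2 to 20.2). In WT cisplatin 4, Lsm4 was low at 69.98 (105 to 109) and Asf1b at 7.25 (9.97 to 10.2). In WT cisplatin 1, Hmox1 was low at 71.7 (140 to 150).

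In BdP cisplatin 2, where B cell markers summed to 955 FPKM, Klf2 was at 126 (33.8 to 46.5), Irs2 at 11.1 (4.41 to 4.79) and Dcaf15, outside the stretch, at 19.2 (14.5 to 15.1). In BdP cisplatin 3, Sap30 was at 102 (58.7 to 65.2) and Ppp2cb at 67.8 (54.5 to 56.5). In BdP cisplatin 1, Adgra2 was at 17.0 (12.5 to 13.2). In BdP PBS 4, Pros1 was low at 1.24 (1.58 to 1.61).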

How the results depend on the processing

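The member medians of BdP minus WT stayed above 0 in every alternative run, and the member median minus that of chromosome 8 beyond the stretch ran from 0.11 to 0.31 under PBS and from 0.16 to 0.30 under cisplatin, against 0.25 in each as reported. The PBS median (0.22) was 0.15 with libraries centred on their median, 0.11 with no filter on low values, 0.25 with a pseudocount of 0.1 and 0.26 with voom on recovered reads. The cisplatin median (0.23) was 0.19, 0.15, 0.27 and 0.27 under the same 4 alternatives, and 0.20 without the 3 libraries richest in mitochondrial reads. Rescaling each library to a fixed total without mitochondrial genes took the median of all genes to 0.42 under PBS and that of the members to 0.66, a difference of 0.24. It took all genes to 0.49 in the WT cisplatin response, to 0.04 in the BdP response and to -0.45 in the interaction, and the members to 0.48, 0.048 and -0.43, so that the WT response and the interaction reversed in sign while lying -0.00 and 0.02 from all genes. Members called under PBS (6) were 1 without those 3 libraries, 2 with centring, 3 with no filter and 0 with rescaling. Members called under cisplatin (7) were 2, 4 and 2 without those libraries, with centring and with rescaling, and 12 with voom. Leaving out 1 library at a time gave medians of 0.19 to 0.23 under PBS and 0.22 to 0.25 under cisplatin, responses of -0.03 to 0.00 in WT and -0.01 to 0.02 in BdP, and an interaction of 0.0053 to 0.053. It gave 0 to 21 called members under PBS and 2 to 15 under cisplatin. Counts for the cisplatin responses and the interaction were 0 in every alternative. Leaving out the immune list, the members after 80 Mb or the 3 libraries was chosen after seeing the data.

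The labels do not say whether replicate numbers pair the libraries, and correlations of expression cannot settle it. Deviations of same-numbered libraries correlated by -0.61 to 0.42, 9 of 24 pairs were over 0.1, and 1 of 16 libraries correlated best with its own number in every other group. With a replicate block, 3 members were called under cisplatin in place of 7 and 5 under PBS in place of 6, and counts for the responses and the interaction stayed at 0.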
